A study of Rattus norvegicus with 12 samples.

Results

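The transcripts described here carry the label of other non-coding transcripts of a rat array, though whether each is non-coding was not checked. Their probes bear the name of a cDNA or other sequence record, not of a RefSeq accession, ultraconserved region or mouse-derived long non-coding RNA. They were chosen by name alone, as probes whose identifier does not start with NM_, XM_, NR_, XR_, uc. or MR. The rule gave 2263 of the 24684 probes on the array, and 1962 of these (86.7%) passed the filter (signal well above background on 3 arrays or more, and a value on every day) and were tested. RNA came from veins of male rats, and each of 4 days had 3 arrays. Control rats, which had no operation, gave the vein of day 0, and days 7, 14 and 28 were counted from surgery that placed an external jugular vein as a bypass of the carotid artery. Total RNA was extracted with Trizol from whole vessels, freed of ribosomal RNA and labelled with Cy3 along the transcripts with oligo(dT) and random primers. The labels name no strain, age, drug or genotype, do not say how many animals gave the RNA of an array, and describe no sham operation, so surgery and arterial flow cannot be told apart. They give every array the same replicate number, so replicates 1 to 3 are names only, and since the labels do not call the arrays separate animals, a p-value here covers only the spread from array to array, part of which may be technical.

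A vein moved into an artery carries blood under far higher pressure than before, and thickens as smooth muscle cells divide, matrix is laid down and leukocytes enter. Transcripts without a long open reading frame can act on chromatin, on splicing or on other RNAs, and many are made in only a few cell types, so their levels in a whole vessel also follow which cells the vessel holds. Much of what was first known of such transcripts came from cloned cDNAs deposited one by one or in large collections, before reference annotation existed, and an accession shows which collection or database took the record in. The arrays ask which of these transcripts differ between unoperated vein and graft, and between times after grafting.

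The names only partly bore out the label of cDNA records. Mammalian Gene Collection clones (prefix BC), which come from a project that sequenced full-length cDNAs, gave 861 probes, submissions to GenBank 846, to EMBL 322 and to DDBJ 116, records scanned from journals 73 and patent records 9. A further 36 probes held 21 names specific to the array, 6 expressed sequence tags, 6 assembled contigs and 3 Ensembl transcripts. No member's identifier matched the RefSeq gene table used here (0 of 2263), so the files do not pair the members with genes, their sequences are not shown and whether each is non-coding was not checked. In the number of spots per probe, 2225 members had 3 and 38 had 10. All 27 NR_ probes, all 4407 MR probes and 1698 of 1702 XR_ probes had 3 too, while all 962 uc. probes had 1 spot, and coding probes had 1 in 15283 cases and 10 in 40. The 38 members with 10 spots were the 21 array-specific names, the tags, contigs and Ensembl transcripts, and D63772 and M31178. Of the 21 array-specific names 9 passed the filter.

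Levels are given throughout as log2 of the processed intensity over the 75th percentile of the same array, so a value of 0 is that percentile. Of the 2263 members, 1385 were well above background on all 12 arrays, 198 on no array, and 103 on 1 or 2 arrays, and 301 were left out of the tests. Just inside the filter lay 34 members seen on exactly 3 arrays, whose highest values had a median of -5.36, and just outside it 45 members seen on exactly 2, with a median of -5.73. The 3 arrays were all of 1 day for 13 of those 34 members: day 14 for 6, day 0 for 5, day 28 for 2 and day 7 for 0. Such members passed the filter only through the day on which they were high. The tested members were dimmer than other probes, with a median level over the arrays of -2.52 against -1.54 for all tested probes and -0.72 for coding probes, and they ran from -7.6 to 8.50.

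On each array 71.9% to 82.6% of gene spots were well above background and 0 were saturated. The arrays of day 0 replicate 3 and day 7 replicate 3 stood apart from the others, with 460 and 393 spots that the scanner software marked as non-uniform against 2 to 11 elsewhere. On those 2 arrays, 33 tested members (1.68%, against 1.78% of all probes) were at least 1 log2 unit above every other array. M18852 was the most extreme: it read 7.41 on day 0 replicate 3 and 6.76 on day 7 replicate 3, and between -1.67 and -0.47 on the other 10 arrays. A further 30 members (1.53%, against 0.94% of all probes) were at least 1 unit below every other array on both. The 2 arrays belong to different days. The median SD of a member was 0.56 at day 0 and 0.36 at day 7, against 0.20 at day 14 and 0.19 at day 28. The part of the 2 arrays in that spread was not tested. Without both arrays more members were called in every comparison, as given beside each.

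**Figure D1:**
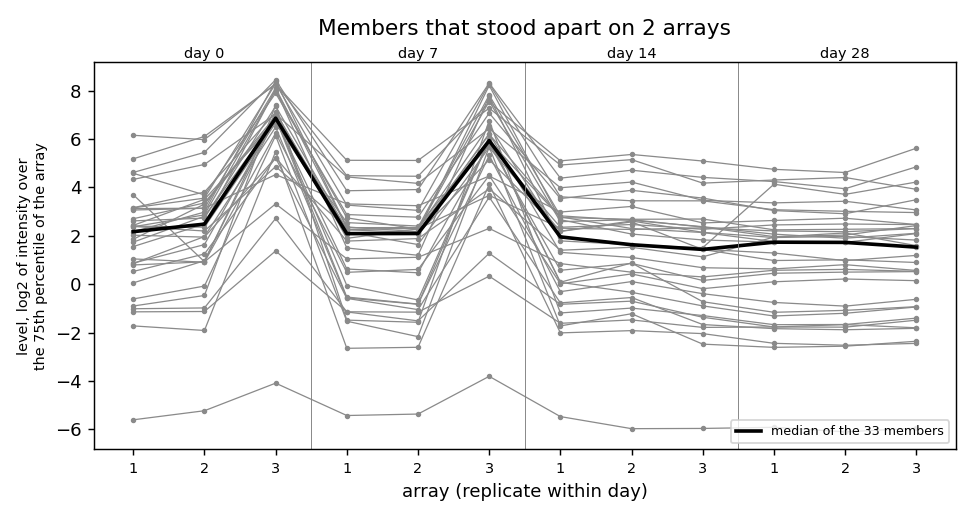
Level (y axis, log2 of intensity over the 75th percentile of the array) of 33 members on the 12 arrays (x axis, replicate within day); grey lines are members and the black line is their median. M18852 reached 7.41 and 6.76 on day 0 replicate 3 and day 7 replicate 3, and no other array read above -0.47 for it.

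About as many of these transcripts differed between graft and unoperated vein as of all probes on the array. At day 7, limma called 636 of 1962 members at an adjusted p under 0.05 (32.4%, against 33.1% of all 21063 tested probes), 368 higher and 268 lower than at day 0. At day 14 it called 632 (32.2%, against 37.5%), 356 higher and 276 lower. At day 28 it called 666 (33.9%, against 33.9%), 368 higher and 298 lower. In all, 992 members were called on at least 1 graft day, and 3 were called higher on one graft day and lower on another. These counts were not made over all probes, so they have no share to stand beside. On all 3 graft days 173 members were higher than at day 0 (8.82%, against 11.4% of all probes) and 150 were lower (7.65%, against 9.18%). The median change of a member was 0.04 at day 7, 0.07 at day 14 and 0.12 at day 28, beside -0.03, 0.02 and 0.01 over all probes; the comparisons share the day 0 arrays.

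The split between higher and lower calls was not the same for each kind of probe. At day 28, 18.8% of members were called higher and 15.2% lower, and without day 0 replicate 3 the balance turned (301 higher and 332 lower). Probes for long non-coding RNAs inferred from mouse (MR) were called higher in 10.3% and lower in 22.5% of 3435 cases, and probes of ultraconserved regions (uc.) higher in 7.47% and lower in 20.3% of 576. Coding probes were called higher in 19.9% and lower in 15.5% of 13625, close to the members. Predicted non-coding transcripts (XR_) were called less in all, 12.9% higher and 10.8% lower of 1439. These shares are descriptions and the difference between kinds was not tested.

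**Figure D2:**
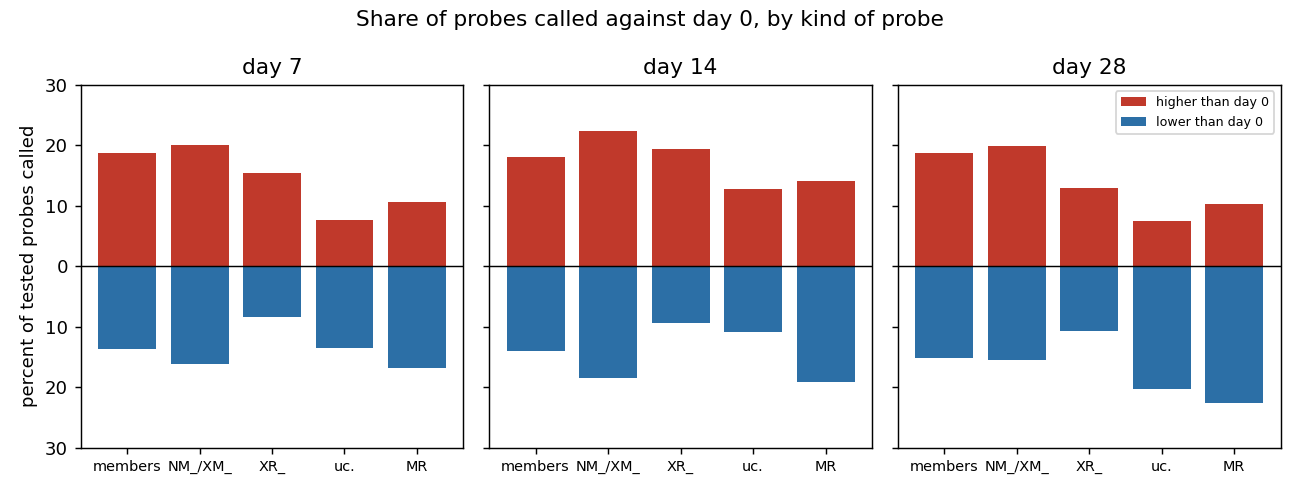
Percent of tested probes called against day 0 by limma (adjusted p under 0.05), higher above the line and lower below it, for the 1962 members and 4 other kinds of probe at days 7, 14 and 28. At day 28 the members split 18.8% higher to 15.2% lower and the MR probes 10.3% to 22.5%.

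The counts of calls depended on the arrays and on the scan. The file headers place the arrays in 4 scans, of which none holds arrays of both day 0 and day 7 or of both day 0 and day 14. With the scan as a block, members called fell to 5 at day 7, 79 at day 14 and 123 at day 28. In the scan that holds both day 0 (replicates 1 and 2) and day 28 (replicate 3), all 666 members called at day 28 moved in the called direction, with a median size of 1.36 against 1.63 over all arrays, although those arrays also entered the calls. Leaving out day 7 replicate 1 lowered the count at day 7 to 423, and leaving out day 28 replicate 1 lowered that at day 28 to 409. Without the 2 arrays that stood apart the counts were 816, 821 and 901. Normexp correction, which moved the median change over all probes to 0.44, -0.06 and -0.16 on the 3 graft days and that between graft days to as low as -0.48, left 241, 249 and 216 members called. It also moved the split at day 7, where 70.1% of calls were higher against 57.9% without it. Higher calls were the smaller part without day 0 replicate 3 at days 7 and 28 (48.1% and 47.6%), and without the 2 arrays that stood apart at days 14 and 28 (48.1% at each), against 56.3% and 55.3% over all arrays at days 14 and 28.

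Among members higher in the graft, EF199812 changed most at days 7 and 14. Its levels were -3.59, -4.82 and -5.92 at day 0, 1.68, 0.82 and 2.11 at day 7, 2.17, 2.40 and 2.29 at day 14, and 0.63, 0.31 and 1.15 at day 28. Every graft array lay above every day 0 array, which was a condition of naming it on each day. It rose by 6.32 ± 0.52 (log2 difference ± SE, 3 arrays a day; adjusted p = 2.39e-05) at day 7, by 7.06 ± 0.52 (adjusted p = 1.03e-05) at day 14 and by 5.47 ± 0.52 (adjusted p = 8.78e-05) at day 28, and with the scan as a block the day 7 rise of 6.60 had an adjusted p of 0.0696.

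BC167061, a Mammalian Gene Collection clone, moved to a new level by day 7 and was about the same on all later arrays. It read -5.05, -4.86 and -6.44 at day 0, and between -0.54 and 0.42 on the 9 graft arrays. The rises were 5.10 ± 0.35, 5.67 ± 0.35 and 5.07 ± 0.35 (adjusted p = 8.58e-06, 4.14e-06 and 1.35e-05), and all 3 were also called with the scan as a block (adjusted p = 0.0276, 0.0034 and 0.0021). BC158675, another such clone, was brighter: it read -1.23, -1.47 and -2.43 at day 0 and between 2.51 and 3.93 in the graft. It rose by 5.02 ± 0.33, 5.36 ± 0.33 and 4.35 ± 0.33 on the 3 days (adjusted p = 8.36e-06, 4.34e-06 and 2.35e-05). BC158638 read -6.25, -5.41 and -6.98 at day 0 and between -2.23 and -0.49 in the graft, with rises of 4.58 ± 0.38, 5.48 ± 0.38 and 4.07 ± 0.38 (adjusted p = 2.36e-05, 6.88e-06 and 7.2e-05). The day 7 rises of BC158675 and BC158638 were lost with the scan as a block (adjusted p = 0.0615 and 0.133). In each of the 3 clones the graft days lay apart from day 0 on every array. For the days at which a clone was named, this was a condition of the choice.

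AJ005396 and X89963 were higher on all graft days, and their graft days differed more. AJ005396 read -4.36, -4.31 and -4.23 at day 0, 2.30, 2.75 and -0.76 at day 7, 0.72, 1.07 and 0.40 at day 14, and 2.52, 3.14 and 0.86 at day 28. Day 7 replicate 3 was the lowest graft array. It rose by 5.73 ± 0.82 at day 7 and by 6.48 ± 0.82 at day 28, the largest rise of a member at that day (adjusted p = 0.000628 and 0.000404), and with the scan as a block the adjusted p was 0.54 and 0.0564. X89963 read 0.33, -1.48 and -1.76 at day 0, 4.63, 4.94 and 3.06 at day 7, 2.45, 2.27 and 2.59 at day 14, and 5.11, 5.13 and 5.10 at day 28. It rose by 5.18 ± 0.56, 3.4 ± 0.56 and 6.08 ± 0.56 (adjusted p = 0.000118, 0.00109 and 7.24e-05), and from day 14 to day 28 it rose by 2.68 ± 0.56 (adjusted p = 0.028). Its rise was called with the scan as a block at day 28 (adjusted p = 0.0194), and lost at day 7, at day 14 and from day 14 to day 28 (adjusted p = 0.263, 0.18 and 0.144). BC158825, also among the 6 largest rises at day 7, read -4.19, -4.15 and -3.45 at day 0 and 2.39, 2.74 and 0.97 at day 7, a rise of 5.96 ± 0.75 (adjusted p = 0.000288, and 0.127 with the scan as a block).

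Among members lower in the graft, BC086433 lost most. Its levels were 4.78, 5.51 and 5.66 at day 0, far above the 75th percentile, and -2.48, -2.06 and -5.02 at day 7, -4.74, -4.12 and -5.11 at day 14, and -1.01, -0.68 and -1.57 at day 28. It fell by 8.50 ± 0.66, 9.97 ± 0.66 and 6.40 ± 0.66 (adjusted p = 1.72e-05, 5.89e-06 and 0.000133), and it was higher at day 28 than at day 14 by 3.57 ± 0.66 (adjusted p = 0.0173). With the scan as a block it fell by 8.93 at day 7 (adjusted p = 0.132), and the difference between days 14 and 28 had an adjusted p of 0.119. AJ517196 had a like course, at 1.68, 2.54 and 1.98 at day 0, -2.02, -1.57 and -4.83 at day 7, -5.08, -4.95 and -5.03 at day 14, and -0.30, -0.21 and -0.36 at day 28. It fell by 7.09 ± 0.67 at day 14 (adjusted p = 4.14e-05) and was 4.73 ± 0.67 higher at day 28 than at day 14 (adjusted p = 0.00551, and 0.0831 with the scan as a block).

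AB049626 and BC169049 fell and stayed low. AB049626 read 1.35, 2.29 and 1.67 at day 0 and between -4.25 and -3.29 on the 9 graft arrays, which is a fall of 5.44 ± 0.27, 5.78 ± 0.27 and 5.13 ± 0.27 on the 3 days (adjusted p = 1.21e-06, 7.57e-07 and 2.69e-06). It was called on each day with the scan as a block too (adjusted p = 0.0473, 0.0073 and 0.0038). BC169049 read -0.82, 0.61 and 0.77 at day 0 and between -6.38 and -4.90 in the graft, a fall of 5.44 ± 0.42, 5.98 ± 0.42 and 5.45 ± 0.42 (adjusted p = 1.65e-05, 7.32e-06 and 2.35e-05). BC166501 read 0.16, -0.18 and -0.66 at day 0, between -5.97 and -4.69 at days 7 and 14, and between -3.35 and -3.06 at day 28. It fell by 5.04 ± 0.34 at day 7 (adjusted p = 8.4e-06) and was 1.96 ± 0.34 higher at day 28 than at day 14 (adjusted p = 0.0138). The day 7 falls of BC169049 and BC166501 were lost with the scan as a block (adjusted p = 0.0914 and 0.108), as was the later difference of BC166501 (adjusted p = 0.117).

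The falls of 2 members were given by bounds, since they were not well above background on the graft arrays of a day. A bound sets the mean of the brighter day against a floor for the dimmer day, namely, array by array, the lowest level that any probe well above background had, or the member's own level where that was higher. BC105757 read -1.27, -1.42 and -1.19 at day 0 and was measured well above background on none of the arrays of days 7 and 14. It was at least 41.7-fold lower at day 7 and at least 49.0-fold lower at day 14 (adjusted p = 7.47e-07 and 6.85e-07), and at day 28, where 2 of 3 arrays measured it, it read -5.83, -6.61 and -5.36. As BC105757 passed the filter only through days 0 and 28, a difference from days 7 and 14 was bound to follow. AY044435 read -3.41, -1.67 and -2.81 at day 0 and was measured on no graft array, so it passed the filter only through day 0 and a difference was bound to follow. It was at least 16.5-fold, 19.4-fold and 22.2-fold lower at days 7, 14 and 28 (adjusted p = 8.67e-06, 6.65e-06 and 1.23e-05), and with another background correction (normexp) none of these 3 and not the day 7 fall of BC105757 was called. The day 7 fall of AY044435 was also lost with the scan as a block (adjusted p = 0.133).

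EU643794 and U10155 had their lowest levels at day 28. EU643794 read 2.66, 3.79 and 2.46 at day 0, between -1.03 and 0.59 at day 7, 0.58 to -2.21 at day 14, and -2.35, -2.29 and -2.09 at day 28. Its fall was 3.09 ± 0.65, 3.71 ± 0.65 and 5.22 ± 0.65 (adjusted p = 0.00513, 0.00158 and 0.000369), and the graft days did not differ from one another beyond the threshold. Of the falls of EU643794, that at day 28 alone was called with the scan as a block (adjusted p = 0.0401, against 0.544 and 0.173 at days 7 and 14). U10155 read 3.79, 5.30 and 5.15 at day 0, 1.88, 0.54 and 3.38 at day 7, 1.39, 2.86 and -0.03 at day 14, and -0.74, -0.73 and -0.75 at day 28. It fell by 2.81 ± 0.80, 3.34 ± 0.80 and 5.49 ± 0.80 (adjusted p = 0.0215, 0.00819 and 0.000847), with adjusted p of 0.742, 0.353 and 0.0687 with the scan as a block. Both had day 14 replicate 3 lowest and day 14 replicate 2 highest within day 14.

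**Figure D3:**
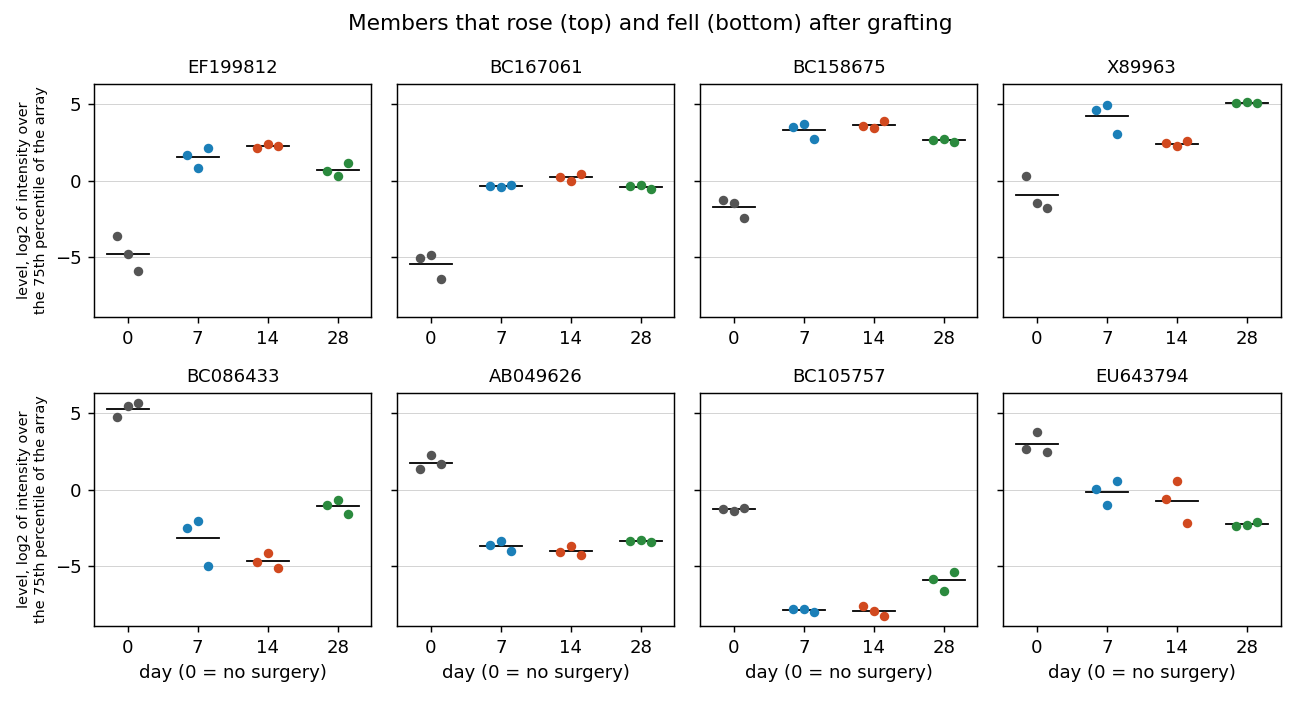
Level (y axis, log2 of intensity over the 75th percentile of the array) of 4 members that rose and 4 that fell, by day; points are arrays, 3 a day, and bars are day means. EF199812 read -5.92 to -3.59 at day 0 and 0.31 to 2.40 in the graft, and BC086433 fell from 4.78 to 5.66 at day 0 to -0.68 or less.

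Marker genes of several cell types also differed between graft and unoperated vein. Of 8 tested genes of contractile smooth muscle, the cells of the vein's media, all 8 were lower on every graft day, and their summed level (linear, in units of the 75th percentile) was 1051 to 1619 on the day 0 arrays and 131 to 299 on the graft arrays. Of 6 adipocyte genes 4, 5 and 4 were lower at days 7, 14 and 28, with a sum of 61.9 to 73.7 at day 0 and 12.6 to 22.7 afterwards. Of 10 macrophage genes 8, 9 and 7 were higher, with a sum of 29.9 to 124 at day 0 and 428 to 885 in the graft. Of 8 T and NK cell genes 6, 7 and 4 were higher, with sums of 2.19 to 56.8 (day 0), 8.02 to 46.4 (day 7), 13.0 to 14.6 (day 14) and 5.22 to 7.49 (day 28), the highest values being those of the 2 arrays that stood apart, on which Cd3g read 5.80 and 5.17 against -0.58 to 0.61 elsewhere. 1 of the 10 macrophage genes was well above background on no array of day 0 or of day 14. Of the 7 endothelial genes 4, 4 and 2 were lower and 1 was higher at day 28. Of 5 erythroid genes 4, 2 and 3 were higher, of 5 genes of dividing cells 3 were higher on each graft day and 1 lower at day 28, of 6 Schwann cell genes 2 were lower at day 14, and of 4 epithelial genes 1 was lower at day 7 and 1 and 2 were higher at days 14 and 28. The lower gene of dividing cells was Cdk1 (adjusted p = 0.04998), whose day 0 arrays scattered widely, at -0.05, 5.77 and 8.07. Its highest graft array, at 3.19, was day 7 replicate 3, which with day 0 replicate 3 stood apart. In whole vessels fewer cells of a type and less RNA per cell cannot be told apart, and the part of these shifts in the members' changes was not tested.

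By the kind of record, EMBL submissions were called higher less often at day 14 than on the other graft days, a difference that was not tested. Of 258 tested EMBL records, 30.6% were higher at day 7, 9.30% at day 14 and 29.1% at day 28, and 8.14%, 7.36% and 8.53% were lower. The prefixes of EMBL records differed in this. Shares higher were 37.9%, 10.7% and 32.0% for AJ, 34.4%, 0% and 36.1% for AM, and 36.4%, 0% and 31.8% for Z. They were 13.2%, 11.3% and 20.8% for X and 21.1%, 36.8% and 10.5% for Y. Runs of consecutive records, described below, held many of the calls: in AJ286145 to AJ286292, 18, 0 and 15 of 44 were higher. Among 804 Mammalian Gene Collection clones the day 14 share was not lower, with 16.7%, 21.6% and 17.7% higher and 15.3%, 16.9% and 13.9% lower. GenBank submissions were higher in 17.4%, 16.6% and 16.2% of 718. Over all probes the shares called higher were 17.7%, 20.1% and 17.4%, and those called lower 15.4%, 17.4% and 16.5%. Of the 9 patent records 7 were lower at day 7, 2 at day 14 and 5 at day 28. No member of the 9 array-specific names that passed the filter was called higher, and 1, 3 and 4 were called lower.

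Another course was a fall at day 14 between 2 higher days. Between days 7 and 14, 95 members were called (4.84%, against 3.26% of all probes), 35 higher (1.78%, against 1.38%) and 60 lower (3.06%, against 1.88%) at day 14. Between days 14 and 28, 117 were called (5.96%, against 4.48%), 81 higher (4.13%, against 2.4%) and 36 lower (1.83%, against 2.08%) at day 28. Between days 7 and 28 24 were called (1.22%, against 1.78%), 14 higher (0.71%, against 0.75%) and 10 lower (0.51%, against 1.03%) at day 28. Of the members, 36 were lower at day 14 than at both day 7 and day 28 (1.84%, against 0.541% of all probes, 0.42% of coding probes and 0.47% of MR probes), so that members made up 31.6% of the 114 probes with that course. The opposite course, higher at day 14 than at days 7 and 28, was met by 14 members (0.714%, against 0.821% of all probes). Whether the share of members with either course differs from that of other probes was not tested.

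Most members with the fall at day 14 lay in a few runs of consecutive records, a description given without the share of all tested members that lie in runs. Joining identifiers of 1 prefix whose numbers lie at most 10 apart, and keeping runs of at least 8 members, 23 of the 36 fell in 6 runs: 9 in AJ286145 to AJ286292, 5 in AM981042 to AM981053, 4 in AF217571 to AF217595, 3 in AM293738 to AM293854, and 1 each in AJ276822 to AJ276838 and L07396 to L07410. Consecutive numbers are usually given to sequences submitted together, and such sets can hold near-identical copies of 1 family, which share labelled RNA between their probes. Whether these runs hold such copies was not tested, and the members of a run cannot be counted as independent. In the run AJ286145 to AJ286292, 44 of 66 probes were tested, 18 were higher than day 0 at day 7, 0 at day 14 and 15 at day 28, and the median change was 1.93, -0.03 and 1.77. In AM981042 to AM981053, 8 of 9 were tested, 6 were higher at day 7, 0 at day 14 and 6 at day 28, with medians of 2.92, -0.15 and 3.09. In AF217571 to AF217595, all 16 were tested and 12, 1 and 7 were higher, with medians of 2.91, -0.61 and 2.26. In AM293738 to AM293854, 43 of 49 were tested and 14, 0 and 16 were higher. Z93351 to Z93371 held 0 of the 36, though 5, 0 and 3 of its 12 tested members were higher, with medians of 1.62, -0.30 and 1.48. In BC091243 to BC091392, a run of clones of like size, 9, 13 and 12 of 43 tested members were higher and the medians were 0.34, 0.28 and 0.56.

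U65217 stood highest among these members and dropped furthest. It read 0.53, -0.66 and -3.77 at day 0, 4.22, 4.41 and 3.63 at day 7, -5.03, -3.24 and -5.17 at day 14, and 3.35, 3.57 and 3.04 at day 28. Days 7 and 28 overlapped no array of day 14, and only at day 0 did the arrays scatter over several log2 units. It rose by 5.38 ± 0.91 at day 7 (adjusted p = 0.00158), fell by 3.18 ± 0.91 against day 0 at day 14 (adjusted p = 0.0198) and rose by 4.62 ± 0.91 at day 28 (adjusted p = 0.00394). From day 7 to day 14 it fell by 8.57 ± 0.91 (adjusted p = 0.00094), and from day 14 to day 28 it rose by 7.80 ± 0.91 (adjusted p = 0.00256). These last changes were also called with the scan as a block (adjusted p = 0.0156 and 0.0287), but its 3 changes against day 0 were not (adjusted p = 0.238, 0.0527 and 0.0647). No other of the 36 members was called in both under that block.

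S64522 and M87783 followed the same order at lower levels. S64522 read -3.63, -8.49 and -7.95 at day 0, -2.08, -1.73 and -3.52 at day 7, -7.98, -7.07 and -8.64 at day 14, and -1.40, -0.76 and -2.72 at day 28. No day 14 array measured it well above background, so it passed the filter only through other days and a difference was bound to follow. From day 7 to day 14 it fell at least 22.1-fold (adjusted p = 0.027), and from day 14 to day 28 it rose at least 38.8-fold (adjusted p = 0.0154). M87783 read -4.53, -6.96 and -7.95 at day 0, -1.16, -0.72 and -3.58 at day 7, -7.34, -5.92 and -8.26 at day 14, and -1.68, -1.43 and -2.09 at day 28, and was higher at day 28 than at day 14 by 5.44 ± 0.96 (adjusted p = 0.0148). AF217591 of the run AF217571 to AF217595 was well above background on the 6 arrays of days 7 and 28 only, at -1.21, -0.73 and -4.79 and at -2.54, -2.89 and -2.17, and was at least 24.1-fold lower at day 14 than at day 7 (adjusted p = 0.0207). As AF217591 passed the filter only through the days on which it was high, a difference was bound to follow. None of these calls was kept with the scan as a block: the adjusted p was 0.366 and 0.0916 for S64522, 0.0963 for M87783 and 0.428 for AF217591. For each of S64522 and M87783 the rise to day 28 was lost when day 14 replicate 1 or 3 or day 28 replicate 1 or 2 was left out, with adjusted p between 0.0569 and 0.0766, and S64522's fall at day 14 was lost without any 1 of 5 of the 6 arrays of those days, day 7 replicate 3 being the exception, with adjusted p between 0.0558 and 0.122.

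Over all 36 members the day 14 arrays lay below every array of days 7 and 28, although the same arrays chose the 36. Their median level was -5.77, -5.16 and -6.33 on the day 14 arrays, -1.08, -0.60 and -3.07 on those of day 7, and -1.57, -1.32 and -1.80 on those of day 28. At day 0 it was -3.32, -5.65 and -6.17, and replicate 1 was the highest day 0 array for 30 of the 36. Against day 0, 32 were called higher at day 7 and 32 at day 28, while at day 14 0 were called higher and 2 lower. In the scan that holds days 7 and 14 all 36 were lower at day 14 (median difference -4.11), and in the scan that holds days 14 and 28 all 36 were higher at day 28 (median 4.25), although these arrays also chose the 36. The calling of 36 members rested on few arrays. The count was 5, 8 and 55 without day 7 replicate 1, 2 or 3, 4, 15 and 4 without day 14 replicate 1, 2 or 3, and 4, 9 and 22 without day 28 replicate 1, 2 or 3. It was 1 with the scan as a block and 174 without the 2 arrays that stood apart.

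The B cell marker Cd79b was also lowest at day 14 among the graft days. Of 5 genes of B and plasma cells 2 were tested, and their summed level was 0.113 to 0.563 on the day 0 arrays, 0.385 to 0.683 on those of day 7, 0.111 to 0.17 on those of day 14 and 0.422 to 0.466 on those of day 28. Cd79b, which is part of the B cell antigen receptor, read -2.02, -1.74 and -3.45 at day 7, -5.58, -4.91 and -5.17 at day 14, and -2.75, -2.25 and -3.81 at day 28. It was 2.82 ± 0.52 lower at day 14 than at day 7 (adjusted p = 0.0169) and 2.28 ± 0.52 higher at day 28 than at day 14 (adjusted p = 0.0374). Mzb1, found in plasma cells, differed by -1.68 ± 0.50 and 1.46 ± 0.50 without passing the threshold (adjusted p = 0.12 for each). Cd79a, Ms4a1 and Jchain were not among the tested probes with a symbol. Of the marker genes of other cell types, 3 were also called lower at day 14 than at day 7: Mbp, a myelin protein of Schwann cells, by 4.06 ± 0.79 (adjusted p = 0.0213), and the erythroid genes Alas2 by 2.00 ± 0.45 and Epb42 by 2.03 ± 0.40 (adjusted p = 0.0402 and 0.0218). None of these 3 was called between days 14 and 28 (adjusted p = 0.0638, 0.229 and 0.859). The part of any of these cells in the members' course was not tested.

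**Figure D4:**
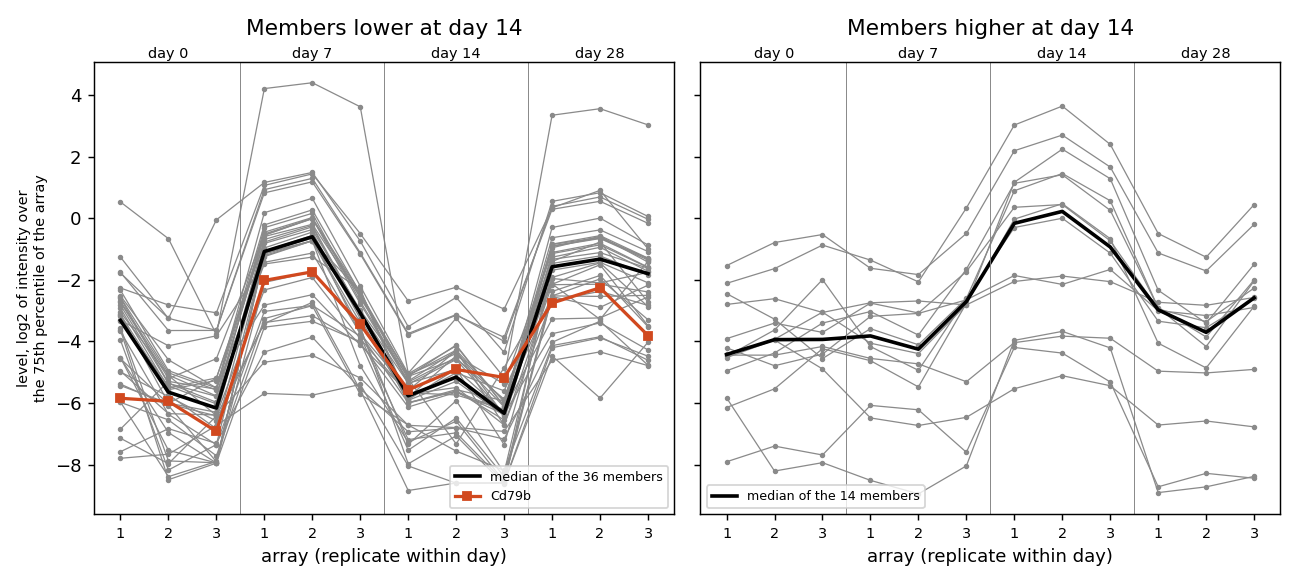
Level (y axis, log2 of intensity over the 75th percentile of the array) on the 12 arrays (x axis, replicate within day) of the 36 members lower at day 14 than at days 7 and 28 (left, with Cd79b) and of the 14 members higher at day 14 (right); grey lines are members and black lines medians. The median of the 36 members was -5.77, -5.16 and -6.33 at day 14 and -1.80 or higher at day 28.

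The 14 members higher at day 14 than at days 7 and 28 were led by EF673689. It read -4.40, -3.93 and -3.05 at day 0, -4.06, -4.39 and -2.81 at day 7, 1.18, 2.25 and 1.29 at day 14, and -2.33, -3.41 and -1.49 at day 28. The day 14 arrays overlapped no other day, though lying apart from day 0 was a condition of naming it. It rose by 5.32 ± 0.58 from day 7 to day 14 (adjusted p = 0.00101) and fell by 3.98 ± 0.58 from there to day 28 (adjusted p = 0.00615). M62483 had nearly the same levels, at 0.90, 1.46 and 0.57 at day 14 and between -4.94 and -1.99 on the other 9 arrays, a rise of 4.88 ± 0.76 and a fall of 4.01 ± 0.76 (adjusted p = 0.00764 and 0.0194), and its fall was lost when any array of day 14, or replicate 1 or 2 of day 28, was left out (adjusted p between 0.0586 and 0.0819). The rises of EF673689 and M62483 to day 14 (adjusted p = 0.0715 and 0.149) and the later fall of M62483 (adjusted p = 0.0637) were lost with the scan as a block. AB075604 read -0.02, 0.48 and -0.66 at day 14 and between -6.15 and -2.76 elsewhere, and was 5.24 ± 0.75 above day 0 (adjusted p = 0.000461).

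Only the 3 arrays of day 14 measured BC158594 well above background. It read -3.96, -3.67 and -4.21 there, so that day 14 exceeded day 7 at least 6.62-fold and day 28 at least 8.91-fold (adjusted p = 0.00162 and 0.00235, the first being 0.126 with the scan as a block). As it passed the filter only through day 14, a difference was bound to follow, and with normexp correction its difference between days 7 and 14 was -0.15 (adjusted p = 0.913), beside a median of -0.37 over all probes under that correction. The median of the 14 members was -0.16, 0.23 and -0.93 on the day 14 arrays and -2.58 or lower on every other array. These members were chosen by the arrays of days 7, 14 and 28. Their count was 6, 5 and 15 without day 7 replicate 1, 2 or 3, 3, 6 and 7 without day 14 replicate 1, 2 or 3, and 5, 8 and 12 without day 28 replicate 1, 2 or 3, it was 0 with the scan as a block, and 57 without the 2 arrays that stood apart.

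The counts between graft days depended on single arrays in the same way. For day 14 against day 7 the count of 95 became 16, 22 and 194 without day 7 replicate 1, 2 or 3, and 17, 50 and 21 without day 14 replicate 1, 2 or 3. For day 28 against day 14 the count of 117 became 17, 42 and 23 without day 14 replicate 1, 2 or 3, and 16, 34 and 50 without day 28 replicate 1, 2 or 3. For day 28 against day 7 the count of 24 became 2 without day 7 replicate 1, 2 without day 28 replicate 1 and 7 without day 28 replicate 3, and lay between 25 and 33 without the others. With the scan as a block the counts were 2, 11 and 0, and at an unadjusted p under 0.05 the fit without a block gave 411, 536 and 314. Without the 2 arrays that stood apart they were 321, 526 and 97, and with normexp correction 6, 17 and 6. Higher calls were 69.2% of those between days 14 and 28 (58.8% with normexp, 52.5% with only the 2 days compared and 36.4% with the scan as a block) and 58.3% of those between days 7 and 28, where normexp gave 33.3% and the submitters' processed values 71.9%.

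L38717, U89531 and AF525411, of the 14 members higher at day 28 than at day 7, and AF130879 had uneven levels at days 14 and 28. L38717 was well above background on 5 arrays: it read -3.44, -7.56 and -2.84 at day 14 and -1.78, -3.58 and -0.84 at day 28, against -8.04 to -6.62 on all arrays of days 0 and 7. Day 28 exceeded day 0 at least 21.8-fold and day 7 at least 22.5-fold (adjusted p = 0.00312 and 0.0464). U89531 read -3.86, -7.00 and -3.27 at day 14 and -2.53, -4.41 and -1.61 at day 28, so that day 28 exceeded day 7 at least 13.6-fold (adjusted p = 0.0358). L38717 and U89531 passed the filter only through days 14 and 28, so a difference from days 0 and 7 was bound to follow. AF525411 read -3.64, -4.91 and -3.22 at day 14 and -2.29, -3.71 and -1.31 at day 28, a rise of 4.21 ± 0.62 over day 7 (adjusted p = 0.0127). AF130879 read -0.72, -3.87 and -0.18 at day 14 and 0.87, -1.74 and 1.95 at day 28, and was 5.38 ± 1.04 above day 0 at day 28 (adjusted p = 0.00356), while its difference from day 7 was not called (adjusted p = 0.073).

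In all 4 members replicate 2 was the lowest array at day 14 and at day 28, and replicate 3 the highest. Skeletal muscle genes had that order too in their median: 9 of 10 were tested, all 9 were higher at day 28 than at day 0, and their median level was 2.18, -0.77 and 2.80 at day 14 and 5.09, 1.59 and 6.18 at day 28, against -3.4 to 0.03 at days 0 and 7. Their summed level was 11.3 to 14.6 on the day 0 arrays, 14.8 to 15.2 on those of day 7, 16.01 to 90.7 on those of day 14 and 53.7 to 906 on those of day 28. Myh4, a fast myosin heavy chain of skeletal muscle, read 5.04, -0.23 and 5.96 at day 28. Of the muscle genes Ckm alone broke the order, at 4.25, 3.61 and 3.96 at day 14. The order was not particular to muscle. It was also met by Emcn, Esam and Tek (endothelial), Fabp4 (adipocyte), Gpnmb, Itgam, Mrc1 and Trem2 (macrophage), and Des and Synm (smooth muscle). Cd4, Cd8a and Gzmb (T and NK cell) and the non-coding RNA H19 met it too, while the other genes of those lists did not. Skeletal muscle is no layer of a vein, and its part in the levels of these members was not tested. The calls of L38717 and U89531 between days 7 and 28 were lost without any of day 7 replicates 1, 2 and 3 or day 28 replicates 1 and 3 (adjusted p between 0.0579 and 0.188), and that of AF525411 without day 7 replicate 1 or day 28 replicate 1 (adjusted p = 0.0602 and 0.0782). None of the 3 calls between days 7 and 28 was kept with the scan as a block (adjusted p = 0.995 for each), and L38717 was not called at day 28 against day 0 (adjusted p = 0.0522). With normexp correction the rises of L38717, U89531 and AF525411 from day 7 to day 28 were 0.88, 0.33 and 0.57 (adjusted p = 0.426, 0.766 and 0.578). The median over all probes was then -0.48. Under that correction L38717 was 1.84 above day 0 at day 28 (adjusted p = 0.171).

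**Figure D5:**
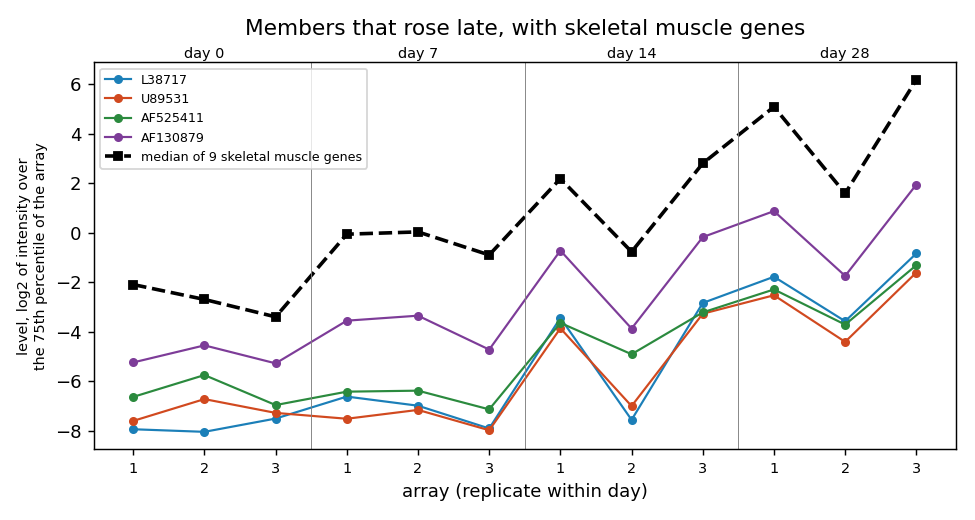
Level (y axis, log2 of intensity over the 75th percentile of the array) of 4 members on the 12 arrays (x axis, replicate within day), with the median of 9 skeletal muscle genes as a dashed line. At day 28 the median of the muscle genes was 5.09, 1.59 and 6.18 and AF130879 read 0.87, -1.74 and 1.95.

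AF241612, AM180765 and FJ705274 were highest at day 7. AF241612 read -3.28, -2.82 and -2.11 at day 0, -0.64, -0.55 and -1.47 at day 7, -4.07, -3.70 and -4.16 at day 14, and -3.76, -3.81 and -3.58 at day 28. It rose by 1.85 ± 0.32 at day 7 (adjusted p = 0.00187), and was below day 0 by 1.24 ± 0.32 at day 14 and 0.98 ± 0.32 at day 28 (adjusted p = 0.0127 and 0.0397). None of these 3 was called with the scan as a block (adjusted p = 0.231, 0.54 and 0.491). AM180765 read -1.54, -1.28 and -2.78 at day 7 and between -5.27 and -3.28 on all other arrays, and was 2.89 ± 0.47 lower at day 28 than at day 7 (adjusted p = 0.0186), a call lost without day 7 replicate 1 or day 28 replicate 1 or 3 (adjusted p = 0.0906, 0.0985 and 0.0768). FJ705274 read 0.20, 0.51 and -1.55 at day 7 and between -2.68 and -2.11 on all other arrays, and its fall of 2.02 ± 0.43 to day 28 (adjusted p = 0.0447) was lost without any 1 of 5 of the 6 arrays, day 7 replicate 3 being the exception (adjusted p between 0.0804 and 0.186). BC091379, in a run of clones, read -2.00, -1.62 and -4.92 at day 7 and -5.52, -5.23 and -6.38 at day 28, and was measured on no array of day 14 or day 0. It was at least 16.7-fold lower at day 14 than at day 7 (adjusted p = 0.00328, and 0.163 with the scan as a block), and days 7 and 28 did not differ beyond the threshold (adjusted p = 0.09). As BC091379 passed the filter only through days 7 and 28, a difference from day 14 was bound to follow. The falls of AM180765 and FJ705274 from day 7 to day 28 were not called with the scan as a block (adjusted p = 0.995 for each).

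Some bright members kept their level through grafting. AY383714 lay between 4.25 and 5.32 on all 12 arrays, BC166980 between 3.46 and 4.0, and U12525 between 3.03 and 4.31. Their differences between any 2 days were at most 0.29 in size, and none was called. These 3 were picked among the brightest members for the small range of their day means, so their steadiness is a description.

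Named non-coding RNAs on the array gave a frame for these levels. Of 22 fixed names 5 were tested with a symbol. H19, an imprinted transcript of embryonic tissue, read 0.65, -1.77 and -2.77 at day 0 and 4.51, 3.12 and 5.38 at day 28, a rise of 5.64 ± 0.83 (adjusted p = 0.000876), with replicate 2 again the lowest array of day 28. Rpph1, the RNA subunit of an enzyme that trims transfer RNAs, dropped by 2.04 ± 0.29, 1.77 ± 0.29 and 2.53 ± 0.29 on the 3 graft days. Abhd11-as1 was also lower on all 3, Terc was lower at day 28 alone, and Gas5 was called on no day, with differences of -0.12, -0.23 and -0.21.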

How the data were processed

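RNA of rat veins was measured on 12 single-colour arrays. The authors' deposited files give a linear intensity for every spot, from which Agilent Feature Extraction 11.0.1.1 (named in the submitters' processing notes) had removed background, per the file headers. No normalization between arrays is recorded there. A second deposited table holds the authors' own log2 values, a scale judged from their range; how they were centred is not given in the sources used here, and they served as an alternative. The design is annotated on rn4, per the file headers.

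Control spots and outlier spots were left out. The main value was log2 of the intensity minus the 75th percentile of the array, averaged over the spots of a probe. A probe was tested if at least 3 arrays had it well above background (in at least 0.5 of its spots) and every day had a value. With limma 3.58.1 (R 4.3.3), group means were fitted over all 12 arrays, with 8 residual degrees of freedom and Benjamini-Hochberg adjustment over all 21063 tested probes, and tested on simulated data. Tables and plots were made with Python 3.11.15, NumPy 2.4.6, pandas 2.3.3 and Matplotlib 3.10.9. With 3 arrays a day the number of arrays limits the precision.

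The members and lists were chosen with earlier results of these data known. Members named were, against day 0, the 6 largest rises and 6 largest falls per graft day among called members whose arrays do not overlap, the 3 largest rises and falls between graft days, and 3 steady bright members; M18852, D63772 and M31178 were named after their values were seen. Alternatives were normexp correction, quantile normalization, the submitters' values, other filters, the scan as a fixed or random block, only the days compared, and arrays left out. Normexp used the median signal, since the mean signal is not in the tables used here. The counts by course over days, the split by accession run and the fit of members with 3 spots were added after seeing the data. 1 marker gene is not reported here and was left out of its list.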

Additional observations from a re-analysis of the deposited data

Results flagged for a closer look

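The change of U65217 from day 0 differed between graft days by a test of the difference itself: the change at day 14 minus that at day 7 was -8.57 ± 0.91 (log2 ± SE, limma adjusted p = 0.00094), and the change at day 28 minus that at day 14 was 7.80 ± 0.91 (adjusted p = 0.00256). It was above day 0 on all arrays of days 7 and 28 and called below day 0 at day 14. With the scan as a block both differences were called (adjusted p = 0.0156 and 0.0287) and no change against day 0 was (adjusted p = 0.238, 0.0527 and 0.0647).

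The change of AF241612 from day 0 also differed: at day 14 it was -3.09 ± 0.32 relative to day 7 (adjusted p = 0.00089), and at day 28 -2.83 ± 0.32 relative to day 7 (adjusted p = 0.00473). It was called above day 0 at day 7 and below day 0 at days 14 and 28. With the scan as a block none of these calls was kept, with adjusted p = 0.0573 and 0.733 for the differences and 0.231, 0.54 and 0.491 for the changes against day 0.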

How the results depend on the processing

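Every direction of the 54 comparisons of named members was kept in 809 of 810 alternative values, and 715 kept their call; 94 lost it, 27 with the scan as a fixed block and 17 with normexp. The exception was BC158594 at day 14 against day 7, at -0.15 with normexp. Normexp also lost the changes between graft days given above for S64522, M87783, BC091379, AM180765 and FJ705274. For M62483 and EF673689 it lost the rise to day 14, and for BC158594 the fall from day 14 to day 28.

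Counts of called members, in the order day 7, 14 and 28 against day 0, then day 14 against 7, 28 against 14 and 28 against 7, were 241, 249, 216, 6, 17 and 6 with normexp and 5, 79, 123, 2, 11 and 0 with the scan as a fixed block, whose cause was not tested. Only the arrays of the days compared gave 240 for day 7 against day 0 and 667 for day 28 against day 14; the cause was not tested. The scan as a random block gave 9 for day 28 against day 7. Leaving out the 2 arrays with many non-uniform spots gave 321, 526 and 97 between graft days. Leaving out 1 array gave 423 to 744, 445 to 741, 409 to 804, 16 to 194, 16 to 50 and 2 to 33.

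Members lower, then higher, at day 14 numbered 3 and 2 with normexp, 1 and 0 with the fixed block, and 174 and 57 without those 2 arrays; quantile normalization gave 58 lower. Leaving out 1 array gave 4 to 55 and 3 to 15. Members higher, then lower, on all 3 graft days numbered 75 and 31 with normexp and 3 and 2 with the fixed block; 238 were lower without those 2 arrays, and leaving out 1 array gave 140 to 247 and 109 to 199. Members with 3 spots alone, other filters and the submitters' values moved no count by over 1.5 times. No paired analysis was possible because the labels give every array the same replicate number. Dim members are limited by signal over background.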
